A study of Mus musculus with 17 samples.

Results

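Ly6C low macrophages sorted from injured mouse muscle were compared with Ly6C high macrophages sorted on the same day, day 4 after injury. For each gene, the value in Ly6C high cells was subtracted from the value in Ly6C low cells. Genes were taken when the log2 value was at least 5 in 1 of these 2 groups, which left 12438 of the 38087 genes of the table. The day 2 pair of the same sorts, with 11482 genes by the same rule, was used for comparison. Both day 4 groups came from male DBA/2J mice aged 3 months. The tibialis anterior, a muscle of the shin, was injured with cardiotoxin, a venom toxin that destroys muscle fibres and is followed by regeneration, and cells were sorted on day 4. There were 3 samples of each sort, 6 of the 17 samples in the series. The labels do not say whether samples came from separate animals or from pools, or give the gates beyond Ly6C. No genotype other than the strain is named for any group, and no uninjured muscle was analysed here.

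Expression was measured by RNA sequencing of poly-A RNA. The authors deposited 1 value per gene and group, a mean over the group's samples of log2 normalised reads, so each value below is such a mean. No spread between samples can be given and no difference has a replicate check or a p-value. A gene is called 2-fold higher or lower when the groups lie at least 1 apart on the log2 scale. Just inside the limit of 5, Gm3170 was at 5.0004 in Ly6C high and 4.92 in Ly6C low cells. Just outside it, Gm12362 was at 4.44 and 4.9999 and Cdk15 at 2.47 and 4.9984.

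As background, blood monocytes with high surface Ly6C enter injured muscle, clear dead fibres and release inflammatory mediators. They mature there into Ly6C low macrophages, which take up apoptotic cells and secrete factors that act on muscle progenitors and on matrix. Uptake ends in the lysosome, where cathepsins and other acid hydrolases break down proteins, sugars and lipids. Ly6C is also carried by plasmacytoid dendritic cells, by many endothelial cells and by some T cells, so a sort on Ly6C can hold such cells where other gates let them pass.

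Ly6C itself is encoded by Ly6c1 (ENSMUSG00000079018, chromosome 15, 75044018 to 75048830, minus strand, GRCm38) and Ly6c2 (ENSMUSG00000022584, chromosome 15, 75108158 to 75111970, minus strand). Ly6c2 had values of 9.65, 9.87 and 10.56 over days 1, 2 and 4 of Ly6C high cells, against 6.16 and 4.64 over days 2 and 4 of Ly6C low cells. Ly6c1 had 7.31, 7.67 and 9.71 against 3.64 and 3.93. Both followed the sort on both days, and the gap was wider on day 4, at -5.92 for Ly6c2 and -5.77 for Ly6c1, than on day 2, at -3.71 and -4.03. The coding sequences of the 2 genes share 384 of 393 bases (97.7%), and the longest identical run is 188 bases. The middle one of their coding exons, 117 bases long, is the same in both and is printed because reads from it cannot be assigned to either gene, so their separate values are uncertain.
Ly6c1, chr15:75047353-75047469, and Ly6c2, chr15:75110511-75110627, minus strand: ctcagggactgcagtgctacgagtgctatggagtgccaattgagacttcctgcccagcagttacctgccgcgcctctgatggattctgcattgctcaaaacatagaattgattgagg

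Other genes of the same chromosome 15 cluster had lower values in Ly6C low cells as well. Ly6d was at 6.77 in Ly6C high and 0.45 in Ly6C low cells on day 4, Ly6i at 5.12 and 1.37, and Ly6a, which encodes Sca-1, at 9.92 and 6.05. Ly6e, which lies in the same stretch, was at 13.09 and 12.08. Ly6g, the neutrophil marker of the cluster, was listed at 0 in both groups. The cluster was looked at after its values were seen.

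The labelled cell type was checked against its markers. Csf1r, the receptor for the macrophage growth factor CSF1, was at 14.06 in Ly6C high and 14.71 in Ly6C low cells. Emr1 (Adgre1 in current use), which encodes F4/80, was at 12.86 and 13.69. Itgam, encoding CD11b, was at 12.81 and 13.01, Cd68 at 13.44 and 13.996, and Fcgr1 at 10.71 and 10.60. None of these 5 macrophage genes was 2-fold apart between the sorts, while Mertk, also a marker, was and is described with the uptake genes. Ptprc, the pan-leukocyte gene encoding CD45, was at 12.97 and 13.11. Beside them, the Ly6C high column held transcripts that define plasmacytoid dendritic cells, endothelial cells and fibroblasts at values above the limit, which are given with their lists below.

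The 6 day 4 libraries were not alike in depth. The worth of 1 read could be read from the lowest values and was 0.499, 0.534 and 0.67 normalised units in the Ly6C high libraries and 0.422, 0.424 and 0.44 in the Ly6C low libraries. At a log2 value of 5, a gene had 47.8 to 64.1 reads per library in Ly6C high and 72.7 to 75.8 in Ly6C low cells. Counting error alone then gives a difference a standard error of 0.15 at a value of 5 and 0.052 at a value of 8. The Ly6C high library with a read worth 0.67 stood apart. It held 69 genes with 10 to 50 reads that were at 1 normalised unit or less in the other 2 libraries of its group. Those libraries held 0 and 1 such genes. The Ly6C low libraries held 14, 0 and 0. Among its genes were Barx2 with 45 reads, Adamts16 with 37 and Wnt2 with 34. The group means cannot be split, so no result could be recomputed without that library, and its part in the results was not tested.

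On day 4, 303 genes (2.44% of those compared) were 2-fold higher in Ly6C low cells and 1111 (8.93%) were 2-fold lower. Higher genes thus made up 21.4% of the 2-fold genes, and 32% (465 higher, 988 lower) when the 2 columns were given the same distribution by quantile normalization. Together 11.4% of the genes compared were 2-fold apart. The median difference over all genes compared was -0.03, and 25% of genes lay under -0.29 and 25% over 0.23. The lower side also reached further. A difference of 4 or more was seen for 100 lower and 0 higher genes, and the range ran from -6.38 to 3.18. Of the genes whose higher value lay between 5 and 7, 17% were 2-fold lower and 3.54% 2-fold higher, whereas among the 169 genes at 13 or more the shares were 5.92% and 5.33%. The excess of lower genes was thus widest at modest values and narrowest at the top, which describes the genes that the filter let in. With at least 5 required in both columns, 230 genes (2.03%) were higher and 486 (4.28%) lower. Most of the 1111 lower genes thus reached the limit through the Ly6C high column alone.

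**Figure D1:**
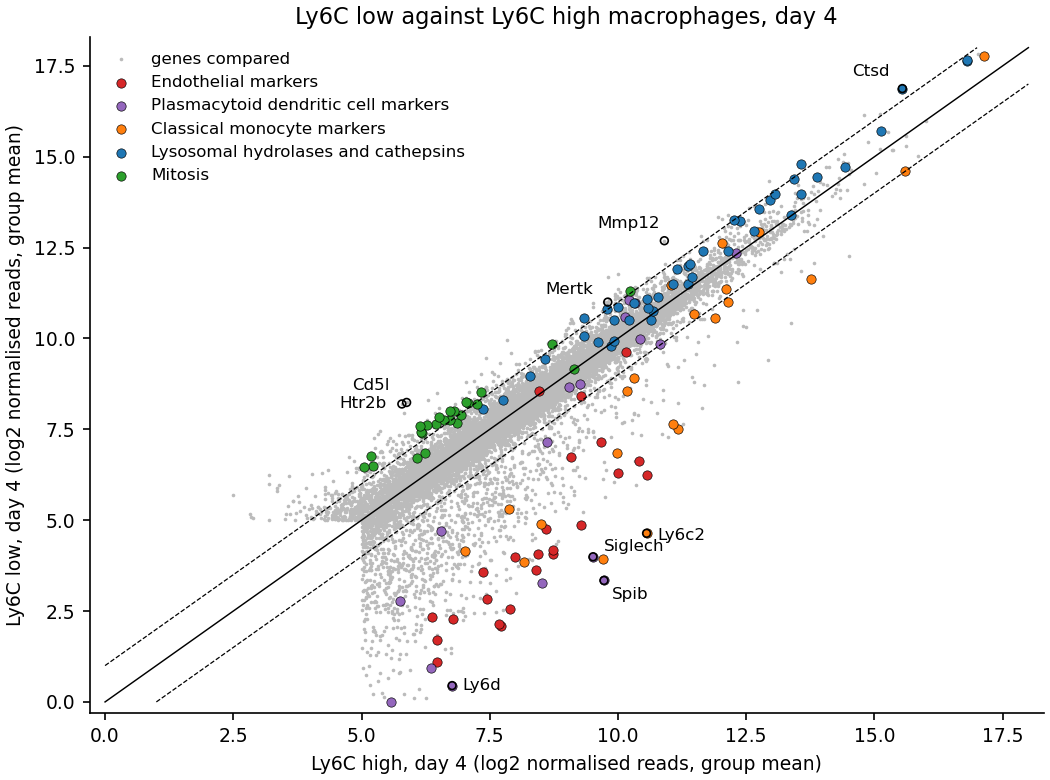
Log2 normalised reads in Ly6C high (horizontal axis) and Ly6C low cells (vertical axis) on day 4, 1 point per gene compared, group means without error bars, solid line at equality and dashed lines 2-fold apart. Lysosomal hydrolases lie just above the solid line up to the highest values, mitotic genes lie mostly above the upper dashed line, and endothelial and several plasmacytoid dendritic genes, such as Spib at 9.73 against 3.34, lie far below.

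The levels of the 2 sets differed across the time course. The 1111 lower genes had a median value of 4.41 on day 2 and 6.96 on day 4 in Ly6C high cells, against 3.08 and 4.66 in Ly6C low cells. Of these genes, 642 were under 5 in both day 2 groups. The set was chosen for high values in Ly6C high cells of day 4, which favours a step up to that column, so these medians describe the set and support nothing. The 303 higher genes had medians of 5.17 and 6.28 on these days in Ly6C high cells, against 6.81 and 7.63 in Ly6C low cells, and were likewise chosen for their day 4 values.

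The 20 protein-coding genes furthest above in Ly6C low cells, among those reaching 8, ran from 2.41 for Htr2b to 1.41 for Nlrc3. Htr2b encodes a serotonin receptor (chromosome 1, 86099026 to 86111970). Its value was 4.35, 5.68 and 5.79 over the 3 days of Ly6C high cells, against 7.96 and 8.20 over the 2 days of Ly6C low cells. Cd5l, a secreted scavenger protein of macrophages, was at 3.52, 5.35 and 5.88 against 8.44 and 8.24. For both genes the Ly6C low value was near its day 4 level already on day 2. Adcy3, which makes cyclic AMP, was at 4.10, 5.53 and 7.84 against 8.03 and 9.94, and Cacna1a, a calcium channel subunit, at 3.84, 4.94 and 7.42 against 7.24 and 9.46. These 2 genes had higher values with time in both sorts and stayed about 2 apart. Nrcam, a cell adhesion molecule, was at 6.25, 6.24 and 6.30 in Ly6C high cells, without a step over time, against 8.42 and 8.32.

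Others of the 20 included Atp6v0d2, a subunit of the proton pump (1.88), the ubiquitin ligases Fbxo32 (1.79) and Rnf128 (1.70), the orphan receptor Gpr34 (1.63) and Slc40a1, the iron exporter ferroportin (1.44). Gpr34 went through 2.90, 5.34 and 7.70 in Ly6C high cells, against 7.56 and 9.33 in Ly6C low cells. All 20 had a positive difference on day 2 too, of at least 1.07. The 20 were ranked by their day 4 difference, which is therefore a description.

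**Figure D2:**
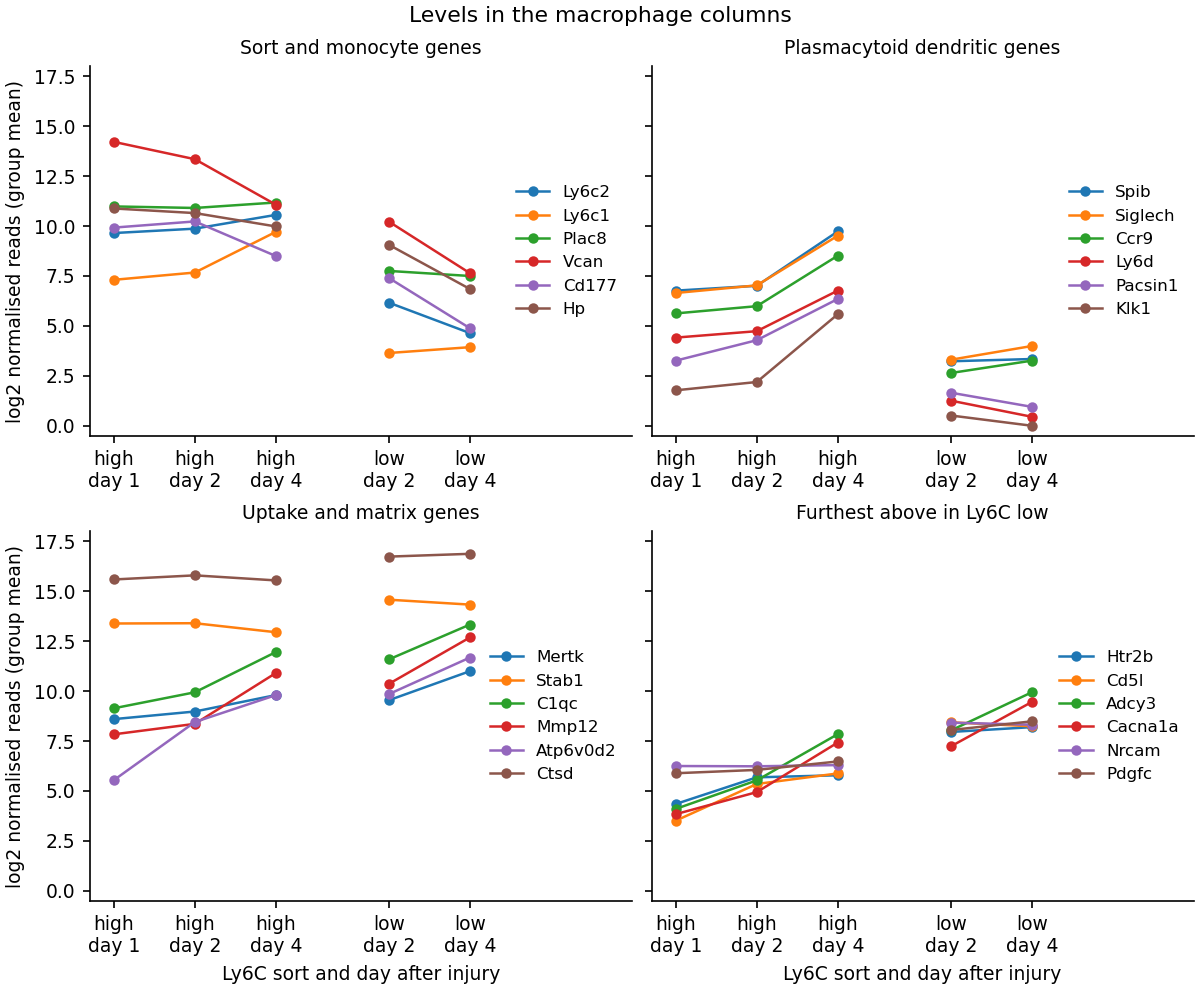
Log2 normalised reads (vertical axis, group mean, no error bars) of 24 genes by sort and day (horizontal axis, days 1, 2 and 4 for Ly6C high and days 2 and 4 for Ly6C low cells), in 4 panels of 6 genes. Monocyte and plasmacytoid dendritic genes lie lower in both Ly6C low groups, while uptake, matrix and the genes furthest above lie higher there on the matching day.

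Genes for the uptake of apoptotic cells were divided. Of 22 members compared, 5 were 2-fold higher and 1 lower, with a median of 0.25 against -0.03 over all genes. The shares over all genes were 2.44% higher and 8.93% lower. Among the receptors, Mertk, a receptor tyrosine kinase for the bridging proteins Gas6 and Pros1, had values of 8.60, 8.98 and 9.80 over days 1, 2 and 4 of Ly6C high cells, against 9.55 and 10.9996 over days 2 and 4 of Ly6C low cells. Its day 4 difference was 1.199. Its relative Axl was at 11.92 in Ly6C high and 11.31 in Ly6C low cells, a difference of -0.61, and Tyro3, the third relative, stayed under the limit at 4.00 and 3.41. The 3 TAM receptors thus did not share a direction. Stab1, a scavenger receptor that binds phosphatidylserine, was at 12.95 and 14.33.

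The complement opsonins C1qa, C1qb and C1qc lie next to each other on chromosome 4 (136880129 to 136898803) and encode the 3 chains of C1q. C1qa was at 12.14 and 13.38, C1qb at 12.04 and 13.29, and C1qc at 11.95 and 13.33. Their differences of 1.25, 1.25 and 1.38 lay within a narrow band, and on day 2 they were 1.58, 1.61 and 1.65. The bridging protein Gas6 was at 11.23 and 11.94, and Mfge8, another, at 9.62 and 10.10. Gulp1, an adaptor of engulfment receptors, went the other way, from 5.41 to 2.66.

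Lysosomal hydrolases and cathepsins were above 0 in 41 of 43 members, with a median of 0.63, but only 4 members (against 2.44% of all genes) were 2-fold higher and none lower. The 4 were Ctsd, an aspartic protease, Ctsl, a cysteine protease, and Sgsh and Naglu, which degrade heparan sulfate. Ctsd (ENSMUSG00000007891, chromosome 7) was at 15.54 in Ly6C high and 16.87 in Ly6C low cells. Ctsl was at 13.57 and 14.80, Sgsh at 9.33 and 10.56, and Naglu at 9.79 and 10.81. Lipa, the acid lipase, was just short of 2-fold, at 12.27 and 13.26. Other proteases lay closer together in the 2 sorts. Ctsb was at 16.80 and 17.66, Ctss at 15.12 and 15.70, and Ctsc at 13.36 and 13.40. The 2 members under 0 were Ctse (-0.14) and Arsa (-0.08). The summed linear values of the list made up 778 of every 10000 of the Ly6C low column and 465 of the Ly6C high column.

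Of 29 genes of the lysosomal membrane and its proton pump, 28 were above 0, with a median of 0.28. Atp6v0d2 was the only 2-fold one, at 9.80 and 11.68, where 2.44% of all genes were 2-fold higher. Its paralog Atp6v0d1, which fills the same place in the pump, was at 11.42 and 11.54, so the 2 isoforms differed in the size of their step. The structural membrane proteins Lamp1 and Lamp2 were at 14.12 and 14.73, and at 12.76 and 12.995. Of the MiT/TFE transcription factors, which are known to bind lysosomal promoters, none was 2-fold apart. Tfec was at 7.54 and 8.47, Mitf at 9.34 and 9.94, Tfeb at 8.76 and 9.13, and Tfe3 at 10.36 and 10.53.

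The factors of that family bind the letters CACGTG, and the promoters of the 4 hydrolases that were 2-fold higher are printed to show where these letters stand. The sequences are the 250 bases before a RefSeq start site (GRCm38.p6), with CACGTG in capitals. The Ctsl window lies wholly inside the annotated gene (64359337 to 64370890), downstream of its outermost start. It may therefore not be the main promoter of Ctsl.
Ctsd (chr7:142387828-142388077, minus strand): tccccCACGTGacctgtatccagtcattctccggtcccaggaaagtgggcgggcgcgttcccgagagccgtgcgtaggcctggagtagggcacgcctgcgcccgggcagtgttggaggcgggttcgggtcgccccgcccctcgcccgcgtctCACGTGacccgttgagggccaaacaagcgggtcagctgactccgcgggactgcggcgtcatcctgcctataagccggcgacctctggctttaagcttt
Ctsl (chr13:64370521-64370770, minus strand): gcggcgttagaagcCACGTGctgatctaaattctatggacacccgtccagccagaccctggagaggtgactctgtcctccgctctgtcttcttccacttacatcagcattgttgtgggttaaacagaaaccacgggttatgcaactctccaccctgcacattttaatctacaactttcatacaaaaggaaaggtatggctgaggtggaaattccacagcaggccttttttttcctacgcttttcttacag
Sgsh (chr11:119355511-119355760, minus strand): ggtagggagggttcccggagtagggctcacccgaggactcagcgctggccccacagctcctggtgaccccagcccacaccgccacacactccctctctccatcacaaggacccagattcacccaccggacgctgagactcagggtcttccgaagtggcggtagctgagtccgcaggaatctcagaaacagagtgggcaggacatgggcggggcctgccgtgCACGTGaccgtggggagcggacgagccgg
Naglu (chr11:101069844-101070093, plus strand): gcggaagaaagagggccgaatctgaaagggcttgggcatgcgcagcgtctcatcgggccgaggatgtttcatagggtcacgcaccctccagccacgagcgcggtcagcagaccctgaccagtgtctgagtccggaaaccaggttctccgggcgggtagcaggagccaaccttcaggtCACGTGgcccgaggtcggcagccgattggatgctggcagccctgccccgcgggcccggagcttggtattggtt

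In windows from 250 bases before to 50 after the start, searched on both strands, 11 of 33 hydrolase genes with a RefSeq promoter (33.3%) held CACGTG, as did 6 of 23 membrane and pump genes (26.1%). The share was 12.2% over 8833 compared genes and 8.09% over the 27025 genes with a promoter. The 11 hydrolases with the letters had a median difference of 0.70 and the 22 without them 0.61. The 2 medians thus lay close together. The largest difference was 1.33 with the letters and 0.996 without them, so the 4 hydrolases 2-fold higher were all among the 11. Of the 232 genes 2-fold higher that had a promoter, 12.5% held the letters, close to the background. Of the 757 genes 2-fold lower, 6.87% did. Whether the letters go with the differences was not tested. The motifs were chosen after the values were seen, and a match is no evidence of binding.

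Genes of lipid handling were above 0 in 24 of 28 members, with a median of 0.52. Of the 28, 3 were 2-fold higher, where 2.44% of all genes were. These were Spp1, which encodes osteopontin (15.11 and 16.18), Gpnmb, a lysosomal glycoprotein (10.60 and 11.67), and Pltp, which transfers phospholipids (12.56 and 13.60). Trem2, a lipid receptor, was at 12.14 and 13.09, and Apoe at 17.02 and 17.82. The fatty acid carrier Fabp5 was at 10.88 and 11.82, whereas its relative Fabp4 was at 11.16 and 9.21. Fabp4 and Angptl4 (9.83 and 8.44) were the 2 members 2-fold lower, a count near the 8.93% of all genes that were lower. On day 2 neither had been, with differences of 0.88 and 0.07. Fabp4 is also made by endothelial cells, whose markers were lower in Ly6C low cells as well, and their part in this difference was not tested. Pparg, the nuclear receptor in the title of the series, was at 8.81 and 8.45.

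Iron and heme handling had a median of 0.43 over 17 genes, 2 of them 2-fold higher, where 2.44% of all genes were. Slc40a1, which exports iron, was at 7.59 and 9.03, and Tfrc, the transferrin receptor that takes iron in, at 9.06 and 10.42. Both import and export genes were thus higher in Ly6C low cells. Hmox1, which degrades heme, was at 13.86 and 13.77.

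Markers of tissue-resident macrophages had 7 of 16 members 2-fold higher and none lower, with a median of 0.81, where 2.44% of all genes were higher. Besides Cd5l they were Lyve1, a hyaluronan receptor (5.36 and 7.45), Fcna, a ficolin (5.56 and 7.25), the chemokine Ccl8 (9.50 and 10.96), Sepp1, which encodes selenoprotein P (14.79 and 16.15), the folate receptor Folr2 (9.93 and 11.17) and the hemoglobin receptor Cd163 (8.98 and 10.13). Vsig4, Marco and Timd4, which also belong to such cells, stayed under the limit of 5, Timd4 at 4.34 and 4.45. Without the limit, 10 of all 21 members were 2-fold higher and none lower, so some members under it were higher as well. Mrc1, the mannose receptor CD206, was at 12.84 and 13.48. On day 2, 13 of 17 members had been 2-fold higher, with a median of 1.31. The count and the median were thus both smaller on day 4.

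Secreted growth and repair factors went both ways, with 3 of 21 higher, 3 lower and a median of 0.16. Of all genes compared, 2.44% were higher and 8.93% lower. Pdgfc, which acts on mesenchymal cells, was at 6.48 and 8.49, Igf1, which acts on muscle progenitors, at 9.72 and 10.85, and Gdf15 at 8.96 and 10.06. Igf1 had been 2.36 apart on day 2. The lower members were Wnt11 (5.78 and 4.42), the cytokine Lif (7.05 and 5.89) and Vegfa, the endothelial growth factor (11.09 and 10.03). Vegfb, its relative, went the other way, at 7.53 and 8.50.

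Matrix proteases and their inhibitors also split, with 4 of 23 higher and 8 lower (median -0.16). The shares over all genes were 2.44% and 8.93%. Higher members were the metalloproteinases Mmp27 (5.83 and 7.94), Mmp12, which degrades elastin (10.90 and 12.69), Mmp9 (7.43 and 8.66) and Mmp8 (6.68 and 7.75). Mmp12 (chromosome 9, 7344381 to 7369499) had values of 7.84, 8.36 and 10.90 over the 3 days of Ly6C high cells, against 10.37 and 12.69 in Ly6C low cells. Lower members included Mmp2 (10.30 and 7.93), Mmp3 (5.44 and 3.36), Adamts1 (10.44 and 7.36), Adamts2 (8.59 and 6.19), Timp3 (8.03 and 5.19) and Timp1 (9.16 and 7.64). Several of the lower members are typical of fibroblasts, whose markers were lower in the same column, and their part was not tested.

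Most mitotic genes had higher values in Ly6C low cells. Of 24 mitotic genes, 18 were 2-fold higher, none was lower, and the median was 1.196. Over all genes, 2.44% were higher. Ndc80, a kinetochore protein, was at 5.19 and 6.77, Plk1, a mitotic kinase, at 5.04 and 6.46, Top2a, a topoisomerase, at 8.72 and 9.86, and the proliferation marker Mki67 at 10.23 and 11.29. Of 26 DNA replication genes, 3 were 2-fold higher (Pole, Mcm10 and Rrm2) and the median was 0.56. Pole, a DNA polymerase subunit, was at 5.27 and 6.50. The sliding clamp Pcna was at 9.88 and 9.96. On day 2, 19 replication genes and 20 mitotic genes had been 2-fold higher, with medians of 1.48 and 1.83. The replication genes thus lay closer together on day 4 than the mitotic genes did.

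Many mitotic promoters carry the letters TTTGAA near the start, an element known for repression in resting cells. Here 15 of 20 mitotic genes with a promoter (75%) held it, on either strand. The share was 14% of compared genes, 20.2% of all genes with a promoter and 2 of 20 replication genes (10%). The 15 had a median difference of 1.14 and the 5 without it 1.28. The promoter of Kif11, a motor protein of the spindle (6.27 and 7.63), is printed. Among mitotic genes with only 1 promoter window and with the letters before the start, it was furthest above. The letters stand at position -19, and the capitals mark them on the opposite strand.
Kif11 (chr19:37376132-37376381, plus strand): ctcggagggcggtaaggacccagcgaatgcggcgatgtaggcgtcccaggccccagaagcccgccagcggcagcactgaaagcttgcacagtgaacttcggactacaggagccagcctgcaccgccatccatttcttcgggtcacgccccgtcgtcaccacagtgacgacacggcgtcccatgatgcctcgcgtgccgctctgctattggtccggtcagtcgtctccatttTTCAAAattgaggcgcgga

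**Figure D3:**
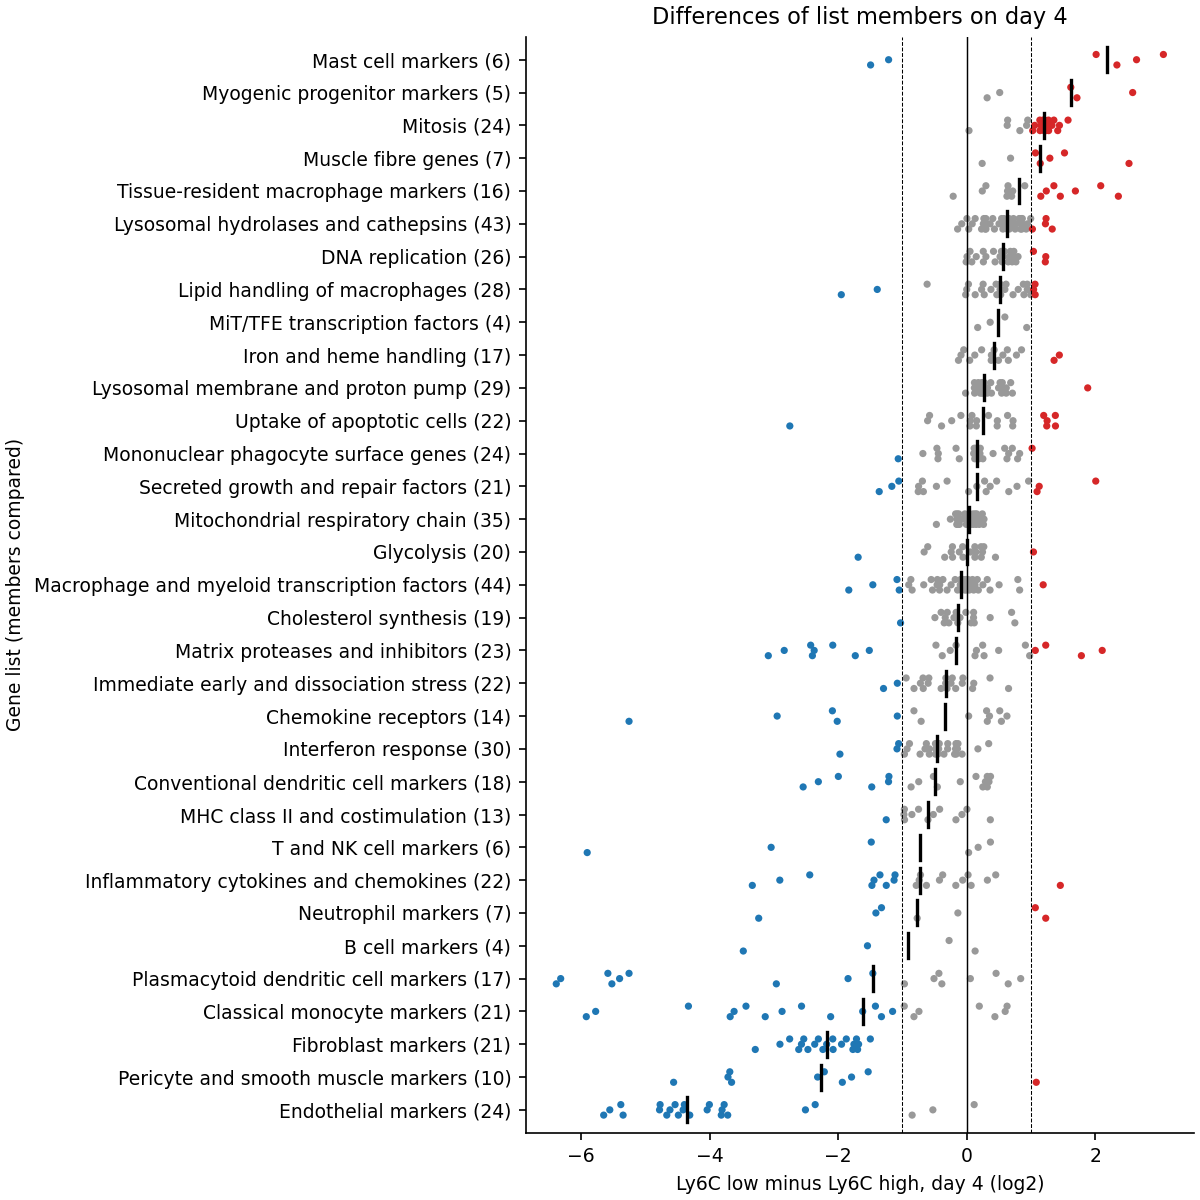
Ly6C low minus Ly6C high on day 4 (horizontal axis, log2) for each compared member of 33 gene lists with at least 4 such members (vertical axis, number compared in parentheses), with a bar at each list's median and dashed lines 2-fold apart. Medians run from -4.35 for endothelial markers to 2.18 for mast cell markers, and red and blue points mark members 2-fold higher and lower.

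Among the lower genes, classical monocyte markers were prominent, with 14 of 21 members 2-fold lower, none higher and a median of -1.62, where 8.93% of all genes were lower. Beside the Ly6c genes they included Plac8 (11.18 in Ly6C high and 7.50 in Ly6C low cells), Cd177 (8.50 and 4.88), the proteoglycan Vcan (11.07 and 7.64) and haptoglobin, Hp (9.98 and 6.85). With at least 5 required in both columns, 9 were lower and the median was -1.24. Ly6C defined the sort, so the 2 Ly6c genes are no independent evidence. Ccr2, the receptor that brings monocytes into tissue, was at 11.49 and 10.67 and not 2-fold apart. Lyz2, lysozyme, was at 17.14 and 17.77, and Itga4 at 11.04 and 11.47. In the same sort, Vcan had been at 14.21 and 13.35 on days 1 and 2, so its high-sort level was lower on day 4, while Plac8 stayed at 10.98, 10.90 and 11.18.

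Inflammatory cytokines and chemokines had 9 of 22 members 2-fold lower and 1 higher, with a median of -0.73. Over all genes, 8.93% were lower and 2.44% higher. Il6 was at 9.14 and 5.81, Nos2, the inducible nitric oxide synthase, at 5.46 and 2.56, Il1b at 13.19 and 11.84, and Ptgs2, which makes prostaglandins, at 11.64 and 10.53. Tnf was at 11.24 and 11.07, and the macrophage chemokines Ccl3 and Ccl4 were at 10.23 and 10.30, and at 10.09 and 10.02. Ccl8 was the higher member. Cytokines thus ranged from a difference of -3.33 to one of 1.46. Il6 and several chemokines are also made by endothelial cells and fibroblasts, whose part was not tested.

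Transcription factors of myeloid cells mostly lay close together, with 39 of 44 members less than 2-fold apart and a median of -0.09. Of the 44, 1 was 2-fold higher and 4 were lower, where 2.44% and 8.93% of all genes were. Bhlhe41 was the higher one, at 8.68 and 9.87. Lower ones were Cebpd (9.29 and 7.46), Runx2 (8.61 and 7.16), Irf7 (11.13 and 10.04) and Id3 (8.88 and 7.83). The factors that set macrophage identity were similar in both sorts, with Sfpi1, the table's symbol for Spi1 encoding PU.1, at 11.94 and 12.11, and Maf at 10.06 and 10.85. Irf7 and Runx2 are also known from plasmacytoid dendritic cells.

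MHC class II genes and their partners in antigen presentation were below 0 in 11 of 13 members (median -0.60). Of the 13, 1 was 2-fold lower, the costimulatory gene Cd80 (9.42 and 8.17), where 8.93% of all genes were lower. The chains H2-Eb1, H2-Ab1 and H2-Aa had differences of -0.98, -0.97 and -0.97, just short of 2-fold, and on day 2 of -0.89, -1.18 and -1.22. The master regulator Ciita was at 8.62 and 8.63. On day 2, 9 of 12 members had been 2-fold lower.

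Interferon response genes were below 0 in 28 of 30 members, with a median of -0.46. Of the 30, 3 were 2-fold lower, where 8.93% of all genes compared were lower. These were Ifi205 (8.003 and 6.03), the antiviral Mx2 (7.30 and 6.21) and the nuclease Isg20 (7.06 and 5.999). Isg15, a ubiquitin-like protein, was at 8.83 and 7.90. Ifit2 was at 8.92 and 9.27, above 0. The letters GAAA, followed after any 2 bases by GAAA, to which interferon-activated factors bind, were found in 14 of 23 members with a promoter (60.9%), against 3.96% of compared genes. The 14 had a median difference of -0.24 and the 9 without the letters -0.48. The promoter of Isg15 is printed with its 3 matches, which overlap, in capitals.
Isg15 (chr4:156200819-156201068, minus strand): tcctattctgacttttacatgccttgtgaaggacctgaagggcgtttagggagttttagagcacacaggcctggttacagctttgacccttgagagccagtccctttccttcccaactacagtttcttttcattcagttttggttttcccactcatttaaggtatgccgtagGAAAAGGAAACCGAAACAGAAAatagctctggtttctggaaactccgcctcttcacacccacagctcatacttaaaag

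The gene furthest below was Spib, a transcription factor of B cells and plasmacytoid dendritic cells (ENSMUSG00000008193, chromosome 7, 44525993 to 44532071, minus strand). Spib had values of 6.77, 7.01 and 9.73 over the 3 days of Ly6C high cells, against 3.23 and 3.34 in Ly6C low cells. Its difference of -6.38 corresponds to an 83.6-fold lower linear value. The step from day 2 to day 4 lay in the Ly6C high column, while the Ly6C low value hardly moved. Siglech, a surface receptor of the same cells, ran in parallel at 6.65, 7.03 and 9.51 against 3.31 and 3.99, as did Ccr9, a chemokine receptor, at 5.63, 5.99 and 8.51 against 2.64 and 3.26.

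Of 17 plasmacytoid dendritic markers compared, 9 were 2-fold lower, none was higher, and the median was -1.46. Over all genes, 8.93% were lower. Most of the 9 reached the limit of 5 through the Ly6C high column alone. With a value of at least 5 required in both columns, 1 was lower and the median was -0.39, and with at least 7 in 1 column 4 were lower and the median was -0.47. The members were spread over a wide range. Spib, Ly6d, Siglech, Pacsin1 and Ccr9 had differences from -6.38 to -5.25, with Pacsin1, for example, at 6.35 and 0.95. Klk1 was at 5.58 in Ly6C high and listed at 0 in Ly6C low cells. Several genes that macrophages also express stayed within 2-fold, such as Tcf4 (10.43 and 9.998), Tlr7 (10.33 and 10.97), Pld4 (12.29 and 12.35) and Bst2 (10.82 and 9.85). Other lower members lay between these, such as Cd300c (5.74 and 2.78) and Cox6a2 (6.55 and 4.70). The members were grouped in this way after their values were seen. The summed level of the list was 15.3 per 10000 in Ly6C high and 12.9 in Ly6C low cells. In these bulk samples, fewer plasmacytoid dendritic cells and less of such RNA per cell cannot be told apart. Conventional dendritic markers had 6 of 18 members lower (median -0.49), led by Clec9a (6.45 and 3.90), Flt3 (7.84 and 5.53) and Fscn1 (9.42 and 7.42).

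Markers of cells outside the myeloid lineage were among the lower genes. Of 24 endothelial markers, 21 were 2-fold lower, none was higher and the median was -4.35. Over all genes, 8.93% were lower. With at least 5 required in both columns, which drops markers that are low in Ly6C low cells, 5 were lower and the median was -2.43. Cdh5, the endothelial cadherin, had values of 7.85, 7.67 and 10.56 over the 3 days of Ly6C high cells, against 6.08 and 6.25 in Ly6C low cells. The receptor tyrosine kinase Tek was at 7.72 and 2.08 on day 4, Cldn5, a tight junction protein, at 8.40 and 3.62, Emcn at 7.89 and 2.55, and Pecam1, encoding CD31, at 10.41 and 6.63. Eng (10.16 and 9.63), Ramp2 (9.28 and 8.43) and Vwf (8.45 and 8.57) were the 3 members within 2-fold. The summed level of the list was 11.3 per 10000 in Ly6C high and 2.05 in Ly6C low cells on day 4, and 2.25 and 1.62 on day 2. No member was listed at 0 in either group.

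Fibroblast markers were lower in all 21 members compared, with differences from -3.29 for Sfrp1 to -1.50 for Fap and a median of -2.18. The share of lower genes was 8.93% over all genes. The collagen genes Col3a1 and Col1a1 were at 14.51 and 12.27, and at 13.83 and 12.07. Dcn, decorin, was at 10.88 and 8.31 and Pdgfra, a marker of muscle fibroblast precursors, at 8.44 and 6.13. Collagen transcripts were therefore present in both sorts. The summed level was 76.3 per 10000 in Ly6C high and 17.9 in Ly6C low cells on day 4, against 1.82 and 0.345 on day 2. Tcf21 was listed at 0 in both. Pericyte and smooth muscle markers were lower in 9 of 10, with a median of -2.27, led by Kcnj8 (5.87 and 1.31), Abcc9 (7.40 and 3.69) and Rgs5 (10.98 and 7.29), and Cspg4 went the other way (7.54 and 8.63). Their summed level was 4.54 and 0.993 per 10000.

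Of the 1111 lower genes, 76 were on a list of other cells and 129 on any list, so most were on none. How far such cells account for the rest was not tested. The Ly6C high library that stood apart held reads of Wnt2 and other genes that were near 0 reads in the others of its group. Whether it also carried these markers could not be read from the group means.

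**Figure D4:**
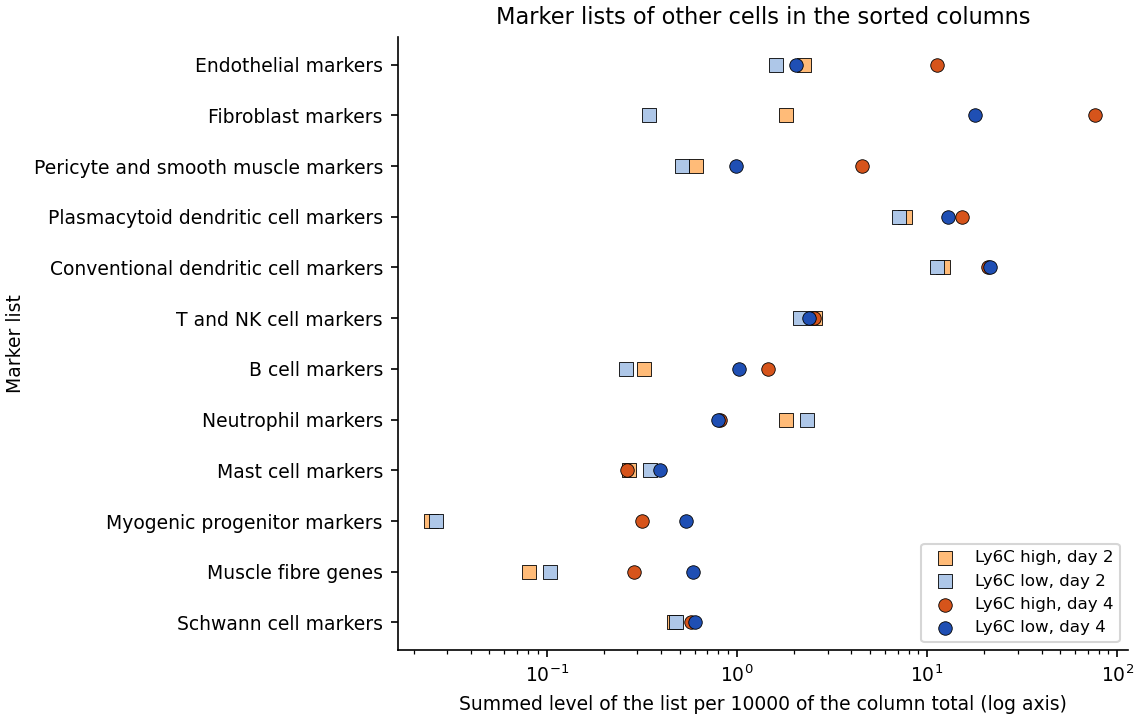
Summed linear level of 12 marker lists (vertical axis) per 10000 of each column's total (horizontal log axis) in Ly6C high and Ly6C low cells on days 2 and 4, 1 value per group. Endothelial, fibroblast and pericyte lists are highest in Ly6C high cells of day 4, at 11.3, 76.3 and 4.54, whereas muscle and myogenic lists are highest in Ly6C low cells of day 4.

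Among lymphocyte genes, Cd8a was at 6.02 in Ly6C high and 0.11 in Ly6C low cells and Il2rb at 6.20 and 3.16. Of 6 T and NK members compared, 3 were lower (median -0.73), where 8.93% of all genes were. With at least 5 required in both columns 1 was lower, and the median was 0.10. Cd8a is also carried by some dendritic cells. The T cell genes Cd3e (4.29 and 1.59) and Cd3g (2.81 and 0.11) stayed under the limit. Cd4, at 8.55 and 8.92, is also transcribed by macrophages. Of 4 B cell markers, Ebf1 (7.27 and 3.80) and Cd22 (6.18 and 4.63) were lower. Cd22 is shared with plasmacytoid dendritic cells and Ebf1 with mesenchymal cells.

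Other markers were higher in Ly6C low cells. Of the myogenic progenitor genes, 5 of 12 reached the limit and 3 were 2-fold higher, where 2.44% of all genes compared were. Myog, the factor of differentiating myoblasts, was at 3.39 and 5.98, Chrna1, an acetylcholine receptor subunit, at 3.77 and 5.49, and Cdh15, M-cadherin, at 4.45 and 6.07. Muscle fibre genes had 5 of 7 members higher, led by the embryonic myosin Myh3 (3.35 and 5.88) and the actin Acta1 (5.36 and 6.88). The myogenic list summed to 0.541 per 10000 in Ly6C low and 0.316 in Ly6C high cells, and the fibre list to 0.589 and 0.287. With at least 5 required in both columns, 0 myogenic and 3 fibre genes were higher, with medians of 0.42 and 1.11. Myog was listed at 0 in both day 2 groups. The part of muscle cells in these and other differences was not tested.

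The mast cell proteases Mcpt4 (3.19 and 6.26), Cpa3 (3.59 and 6.23), Tpsb2 (2.83 and 5.17) and Cma1 (5.24 and 7.26) were also higher, and Fcer1a, the IgE receptor chain, was at 0.74 and 2.66. Kit, their growth factor receptor, went the other way (6.20 and 4.98), as did Hdc (6.99 and 5.50). The list summed to 0.393 and 0.263 per 10000. With at least 5 required in both columns, 1 member was higher and 1 lower. On day 2 the 4 proteases differed by 2.14 to 2.49 in the same direction. Neutrophil markers had 2 higher (Mmp8 and Mmp9, also made by macrophages) and 3 lower of 7 members, and Ly6g and Elane were listed at 0 in both sorts. The shares over all genes were 2.44% higher and 8.93% lower. No erythroid marker reached the limit. What share these cells have in any difference was not tested.

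Energy metabolism was nearly level. None of 35 genes of the mitochondrial respiratory chain was 2-fold apart, and their differences ran from -0.47 to 0.27 with a median of 0.04. Of 20 glycolysis genes, Hk3, a hexokinase of myeloid cells, was 2-fold higher (10.11 and 11.15) and Slc16a3, a lactate exporter, 2-fold lower (10.55 and 8.86), with a median of 0.00. Cholesterol synthesis had a median of -0.14 over 19 genes, with none 2-fold higher and 1 lower. Over all genes, 2.44% were higher and 8.93% lower. The respiratory chain list covers 35 genes and was chosen with earlier results known. It does not measure how close the 2 columns lay for other genes.

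The same contrast on day 2 rests on other samples, 3 of each sort. There 426 genes (3.71%) were 2-fold higher and 463 (4.03%) 2-fold lower in Ly6C low cells, 7.74% in all. Of the 303 genes higher on day 4, 242 were compared on day 2 and 167 were 2-fold higher there too, which is 55.1% of the day 4 set and 39.2% of the day 2 set. None was 2-fold lower. Of the 1111 genes lower on day 4, 469 were compared on day 2 and 274 were lower there too, or 24.7% and 59.2% of the sets, and 2 were higher. Under the naming rule 1 gene was 2-fold apart in opposite directions, S100a9, a calcium-binding protein of neutrophils and monocytes, which was at 5.04 and 3.71 on day 4 and 1.61 apart the other way on day 2.

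The lists can be set side by side on the 2 days. Of the endothelial markers, 16 of 24 were compared on day 2, 11 were lower, and the median was -2.02, against -4.35 on day 4. For fibroblast markers all 11 compared were lower on day 2, with a median of -2.47, close to the -2.18 of day 4, although their level was much lower. For monocyte markers the medians were -1.56 and -1.62, and for lysosomal hydrolases 0.37 and 0.63. Whether the difference changed between the days was not tested, since each group has 1 value.

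**Figure D5:**
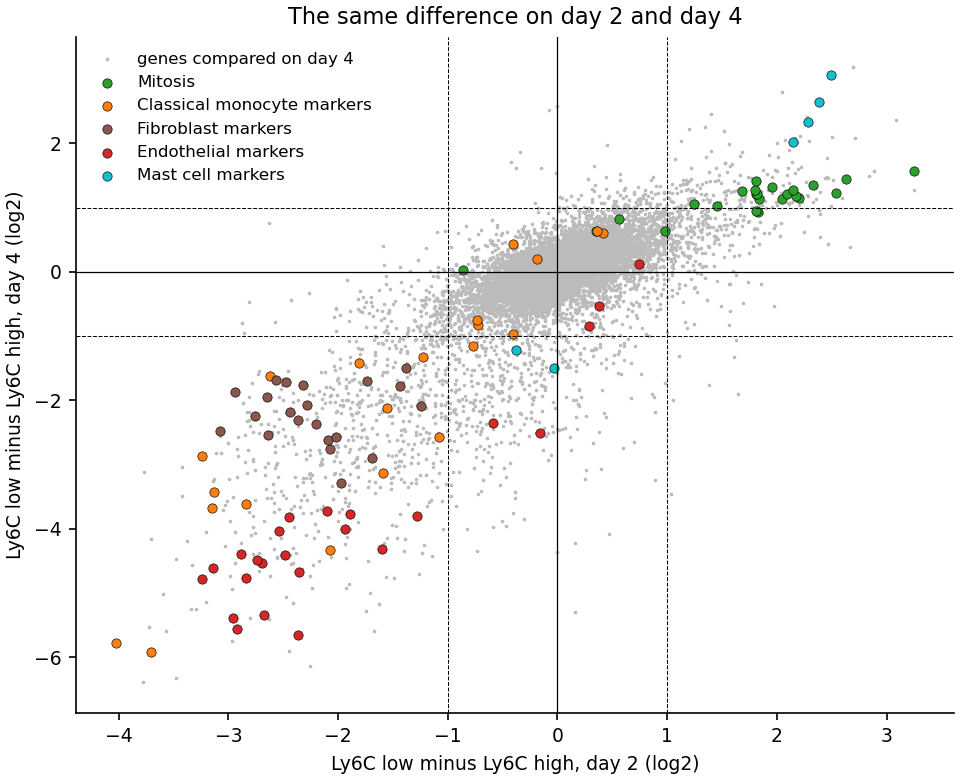
Ly6C low minus Ly6C high on day 2 (horizontal axis) and day 4 (vertical axis), both log2, for the genes compared on day 4, with dashed lines 2-fold apart. Mitotic genes mostly lie to the right with day 2 differences over 1.45, endothelial markers mostly lie at the bottom with a day 4 median of -4.35, and the mast cell proteases lie at the upper right.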

How the data were processed

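RNA sequencing of sorted muscle macrophages gave 6 samples for the day 4 comparison, 3 of each sort, and 6 for day 2. The authors deposited log2 normalised reads in a table with 1 column per group, read here as a mean over the samples of the group, with values under 1 set to 1 before the logarithm. The submitters' processing notes name mm10, TopHat2 2.0.7 and Cufflinks 2.0.2 without a role. The annotation, the normalization and the use of strand were not given in the sources used here.

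Differences were subtracted between columns with pandas 2.3.3 and numpy 2.4.6 in Python 3.11.15, with no pseudocount. The filter was a log2 value of at least 5 in 1 of the 2 columns, and genes at least 1 apart were counted. No test could be run, because no sample values were used. The planned limma fits, the replicate block and the leaving out of samples were therefore not run. The worth of a read came from low values that are whole multiples of a unit in 1 library, within a relative tolerance of 1e-05, which held for 39.2% of low genes in Ly6C high and 28.1% in Ly6C low cells. The number of such units was set to the number of samples. Total reads per library cannot be had from the means. Summed levels are sums of 2 to the power of the value, per 10000 of the column. The scripts were tested on simulated data.

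The members and the 35 gene lists were chosen with earlier results of these data known. Genes were named by rule. It takes the 20 protein-coding genes furthest above and below among those reaching 8, up to 8 members of each list with the largest difference, a set of anchor genes, 2 genes on each side of the filter, 3 noncoding genes each way and up to 10 genes of opposite sign on the 2 days. Some genes that the rule takes are left out of the text. Other genes were chosen after their values were seen, mostly as list members near 0 or counterparts of a named gene. A symbol on more than 1 row (3966 rows) was used once in a list. GENCODE M21 (GRCm38, the assembly of mm10) held 36308 (95.3%) of the identifiers. Promoters came from RefSeq (GRCm38.p6), without those of chromosome 18. Alternatives were 3 filters, pseudocounts of 1 and 5, quantile normalization, centring on the median and protein-coding genes alone.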

Additional observations from a re-analysis of the deposited data

How the results depend on the processing

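The count of 303 higher genes became 639 without a filter, 184 with a value of at least 7 in 1 column and 465 after quantile normalization. The count of 1111 lower genes became 2624 without a filter, 539 at 7 and 486 with at least 5 in both columns. The filter's own construction sets the first counts, since more or fewer genes are compared. The cause of the change under quantile normalization was not tested. Under the other settings both counts stayed within 1.5 times. These were pseudocounts of 1 (290 and 1093) and 5 (263 and 1060), centring (332 and 1081) and protein-coding genes alone (291 and 1059). No named gene that was 2-fold apart changed direction after quantile normalization. The other settings could not reverse such a gene. Filters leave its difference as it is, a pseudocount keeps the sign, and centring moves all differences by the same small amount. Named genes with smaller differences were not checked for a change of direction. Medians changed sign for matrix proteases (0.13), T and NK (0.27) and neutrophil markers (1.07) and glycolysis (-0.06) at 7, for matrix proteases (0.13), chemokine receptors (0.31), T and NK (0.10) and neutrophil markers (0.47) at 5 in both columns, and for cholesterol synthesis (0.10) after quantile normalization. Requiring 5 in both columns drops genes that are low in 1 sort. It left 0 lower B cell markers (median -0.07) and a mast cell median of 0.26. No paired analysis was possible because the columns are group means and carry no replicate numbers, and leaving out samples was not possible for the same reason. Depth limits the genes near 5, where counting error alone is 0.15.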

Other observations

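The 1007 processed pseudogenes compared gave 6 higher (0.596%) and 7 lower (0.695%) members. Of 80 lincRNAs 3 were higher (3.75%) and 12 lower (15%), and of 107 antisense genes 3 were higher (2.8%) and 12 lower (11.2%), against 2.44% and 8.93% of all genes compared. The noncoding gene furthest below was the lincRNA AC165433.1 (chromosome 5, 92043064 to 92055960), with values of 8.17, 6.50 and 8.02 over days 1, 2 and 4 of Ly6C high cells, against 2.90 and 3.01 over days 2 and 4 of Ly6C low cells. Its difference of -5.01 on day 4 stands beside one of -3.60 on day 2. The antisense gene Gm15564 was at 9.85 in Ly6C high and 7.28 in Ly6C low cells, and strand was not stated, so its reads cannot be told from those of the opposite strand. The 3 processed pseudogenes furthest above, Gm13416 (7.09 and 8.52), Gm12892 (8.80 and 9.94) and Gm11223 (8.29 and 9.42), may share reads with their parent genes and are uncertain.

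Chemokine receptors had 5 of 14 members 2-fold lower in Ly6C low cells and none higher. Over all genes, 8.93% were lower. With at least 5 required in both columns 2 were lower, and the median went from -0.34 to 0.31. Cxcr7, the table's symbol for Ackr3, was at 7.06 and 4.12, and the formyl peptide receptors Fpr1 and Fpr2, which sense bacterial and mitochondrial peptides, were at 5.55 and 3.46 and at 8.12 and 6.11. Ccr1 was at 10.04 and 8.96. Cx3cr1, the fractalkine receptor, was at 10.35 and 10.97. Immediate early and heat shock genes, which the dissociation of tissue can induce, were below 0 in 18 of 22 members with a median of -0.32. Fosl1 (8.13 and 6.84) and Dnajb1 (10.82 and 9.74) were 2-fold lower, where 8.93% of all genes were.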
